A study of Mus musculus with 4 samples.

Results

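The piRNA pathway and transposon silencing genes described here are 31 mouse genes, chosen by name. They encode the PIWI proteins, the factors that make piRNAs, germ granule and tudor proteins, and nuclear silencing and transcription factors. The others encode the Tex19 paralogs and the arginine methyltransferase that modifies PIWI proteins, with its partner. All 31 had a row among the 44509 named genes of the table. RNA came from mouse testis in 4 libraries. In 2 of them the mice had busulfan-induced oligozoospermia and were treated with Cus-1, a resin glycoside from a cuscutae extract, and in the other 2 they had the busulfan model alone. Every mouse thus carried the busulfan injury, an alkylating agent that depletes dividing germ cells, and no testis without busulfan was analysed here. The labels state no strain, age, dose or time, and none says that samples came from different mice (the extraction note speaks of tissue per group), so the p-values measure a spread between samples that may be technical. Sample titles begin with BPA in the busulfan pair and with CUS2 in the Cus-1 pair, terms not explained, and the groups rest on the source labels. Setting these groups against each other is the stated design, and it bears on the recovery of spermatogenesis that the series title speaks of.

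piRNAs are small RNAs that bind PIWI proteins and guide them to transposon transcripts, which are then cut or silenced. In fetal mouse germ cells PIWIL2 and PIWIL4 direct DNA methylation to transposons. In adult pachytene spermatocytes a much larger set of piRNAs is made from long precursors on the mitochondrial surface and loaded into PIWIL1 and PIWIL2, in cytoplasmic granules that become the chromatoid body of round spermatids.

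Testes given busulfan with Cus-1 had higher levels of most of these genes than testes given busulfan alone. The summed level of the 31 genes was 2213 and 1906 FPKM in the Cus-1 libraries, against 991 and 1428 FPKM in the busulfan libraries. FPKM counts fragments, scaled by gene length and by the size of the library, so levels can be compared between genes. Both Cus-1 libraries lay above both busulfan libraries for 24 of the 31 genes (36.6% of all 19837 tested genes) and below both for 2 (31.7% of all tested genes), and 5 overlapped. The median log2 fold change was 0.72, against 0.04 over all tested genes. Single values ran from -0.43 for Tex19.2 to 1.06 for Henmt1. Fold changes are given as Cus-1 over busulfan alone on log2(FPKM + 1), a scale that makes differences of low genes look smaller.

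By limma, with p-values adjusted by Benjamini-Hochberg over all 19837 genes, 0 of the 31 genes passed the threshold of 0.05 in either direction (0.0% of all tested genes in each), and the smallest adjusted p among them was 0.152. At an unadjusted limma p under 0.05, 15 were higher (18.0% of all tested genes) and 1 was lower (9.96%). In place of 15 there were 3 without busulfan 1 (5.84% of all tested genes), 4 without Cus-1 1 (7.25%), 20 without busulfan 2 (16.1%) and 14 without Cus-1 2 (19.3%). When libraries were centred on Sertoli markers, 20 of the 31 genes passed the adjusted threshold on the higher side, as did 27.5% of all tested genes, whose median log2 fold change was 0.68 there. When they were centred on spermatocyte markers, 0 of the 31 passed in either direction, against 0.0555% of all tested genes on the higher and 0.403% on the lower side. Differences are therefore given as levels with their spread.

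**Figure D1:**
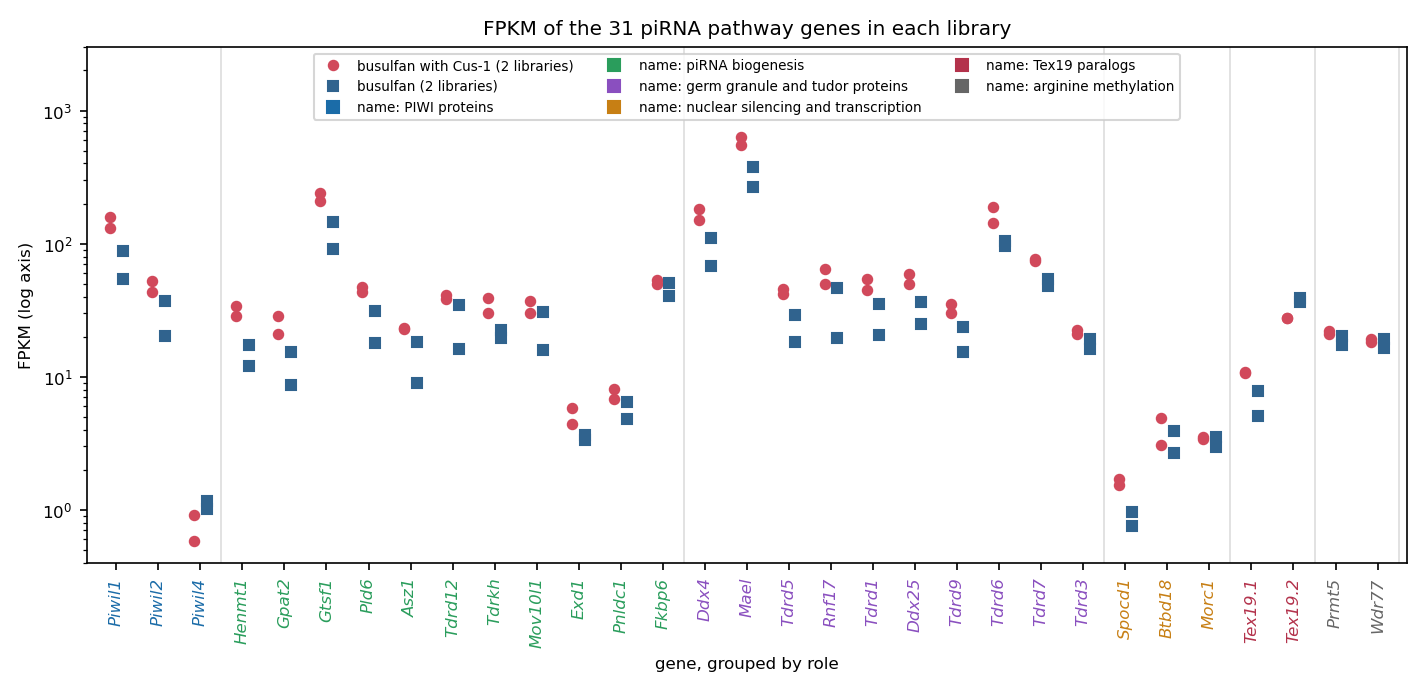
FPKM (log axis) of the 31 genes in each of the 4 libraries, circles for busulfan with Cus-1 and squares for busulfan, with gene names coloured by role. Mael and Gtsf1 had the highest means and Piwil4 and Spocd1 the lowest. For 24 genes both circles lie above both squares (36.6% of all tested genes).

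The libraries were not evenly placed. Busulfan 2 lay above busulfan 1 for 28 of the 31 genes (53.3% of all tested genes), by a median of 0.49 on the log2 scale, and Cus-1 1 above Cus-1 2 for 24 (51.2% of all tested genes), by a median of 0.19. In 17 of the 24 genes with both Cus-1 libraries above, the gap between the busulfan libraries was larger than the gap between the groups. For Piwil4 and Tex19.2, where both lay below, it was smaller. The shares of all tested genes were not computed. From the commonest low values, each library held by estimate 12.2 to 13.9 M fragments. Testis markers were all present, none of the listed markers being at 0 in any library. All 24 spermatocyte markers, of which Ldhc and Meig1 were the most abundant, had a positive log2 fold change (median 0.88), and their summed level was 5764 to 6812 FPKM with Cus-1 and 2795 to 4041 FPKM with busulfan alone. The 16 round spermatid markers, led by Pgam2 and Crem, had a median of 1.11 and summed to 799 to 1211 FPKM with Cus-1 and 391 to 586 FPKM with busulfan alone. The 16 elongating spermatid markers, led by Tnp1 and Prm1, had a median of 1.18 and summed to 4603 to 12736 FPKM with Cus-1 and 3360 to 3519 FPKM with busulfan alone. They were not uniform, with log2 fold changes from -0.76 to 1.37. The 20 Sertoli markers, led by Clu and Ctsl, had a median of -0.72, with sums of 3798 to 4638 FPKM with Cus-1 and 5808 to 7827 FPKM with busulfan alone. The 10 Leydig markers, led by Insl3 and Ptgds, had a median of -0.53, with sums of 15585 to 22729 FPKM with Cus-1 and 31279 to 31865 FPKM with busulfan alone. The 12 macrophage markers, led by Lyz2 and C1qa, had a median of -0.64, with sums of 535 to 655 FPKM with Cus-1 and 769 to 961 FPKM with busulfan alone. These were not uniform either, with log2 fold changes from -2.01 to 0.90. In bulk tissue, more germ cells and more RNA per germ cell cannot be told apart, and the part of the cell mixture in the values below was not tested.

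Of the 3 PIWI genes, Piwil1 and Piwil2 were higher with Cus-1 and Piwil4 was lower. Piwil1, on chromosome 5 (128702524 to 128755474, mm10), encodes MIWI, the PIWI protein of pachytene spermatocytes and round spermatids. It was at 157 and 132 FPKM with Cus-1 and at 54.0 and 88.0 FPKM with busulfan alone. Both Cus-1 values lay above both others, and the log2 fold change was 1.05 (SE 0.27, limma adjusted p = 0.152). Piwil2 encodes MILI, which is present from fetal germ cells to spermatids. It was at 52.4 and 43.5 FPKM with Cus-1 and at 20.2 and 37.3 FPKM with busulfan alone. The groups were apart, but its log2 fold change of 0.78 (SE 0.32, adjusted p = 0.185) was 0.35 without busulfan 1 and 1.20 without busulfan 2. Piwil1 exceeded Piwil2 by 3.0 and 3.02 times with Cus-1 and by 2.68 and 2.36 times with busulfan alone. On the log2 scale this difference between the genes was larger with Cus-1 by 0.27, with no test.

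Piwil4 encodes MIWI2, which carries piRNAs into the nucleus of fetal germ cells. It was at 0.58 and 0.92 FPKM with Cus-1 and at 1.02 and 1.17 FPKM with busulfan alone, by estimate 27 and 37 fragments with Cus-1 and 43 and 52 with busulfan alone. The log2 fold change was -0.27 (SE 0.25, adjusted p = 0.486), which became -0.12 without Cus-1 1 and -0.41 without the other Cus-1 library. It was -0.52 with a pseudocount of 0.1 in place of 1, -0.48 under quantile normalization, and 0.37 when libraries were centred on Sertoli markers. Piwil4 passed the filter of 1 FPKM through the busulfan libraries only, so the filter favoured a place on the lower side.

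Promoter sequences from RefSeq (GRCm38.p6, the build mm10 is named for), from 250 bases before to 50 bases after a gene's start, were held for 25 of the 31 genes. Those of Piwil1 and Piwil4 are shown because these paralogs differed in direction. Capitals mark matches on either strand to AACNGNC, a core of the sites bound by MYB factors such as A-MYB (the regulator of pachytene piRNA genes, encoded by Mybl1), and to the E-box CACGTG, and no matches overlapped in any promoter of these genes.
Piwil1, chr5:128735996-128736295, plus strand: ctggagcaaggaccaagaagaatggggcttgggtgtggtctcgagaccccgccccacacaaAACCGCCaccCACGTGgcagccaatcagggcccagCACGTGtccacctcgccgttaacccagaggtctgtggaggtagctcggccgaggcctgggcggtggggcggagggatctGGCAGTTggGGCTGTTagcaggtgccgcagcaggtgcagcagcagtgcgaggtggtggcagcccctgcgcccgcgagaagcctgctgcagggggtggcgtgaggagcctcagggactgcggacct
Piwil4, chr9:14740623-14740922, minus strand: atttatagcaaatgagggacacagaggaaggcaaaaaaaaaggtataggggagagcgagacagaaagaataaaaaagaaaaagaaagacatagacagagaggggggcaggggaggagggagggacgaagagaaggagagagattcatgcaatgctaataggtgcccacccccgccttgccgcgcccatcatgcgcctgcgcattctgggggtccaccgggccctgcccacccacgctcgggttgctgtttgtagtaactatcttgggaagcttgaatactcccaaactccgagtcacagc
The RefSeq start of Piwil1 lies inside the gene as GENCODE places it, downstream of the gene start given above. The Piwil1 promoter held 3 matches to the MYB core and 2 E-boxes, and the Piwil4 promoter none of either. At least 1 MYB core match stood in 19 of 33 promoters of the 25 genes (57.6%), some genes having several starts that overlap, and in 32.8% of all 32817 promoters in the table. The E-box stood in 12 of the 33 (36.4%) and in 7.15% of all promoters. The full CRE, TGACGTCA, stood in 0 of the 33 and in 1.79% of all. The 33 promoters also held more CpG dinucleotides, with a median of 20 against 7 over all promoters, and the part of base composition in these shares was not tested. A match is a string of letters and does not show binding.

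The 11 genes of piRNA production all had positive log2 fold changes, and for 9 both Cus-1 libraries lay above both busulfan libraries (36.6% of all tested genes). The chain starts with Mov10l1, a helicase that feeds precursors to the mitochondrial nuclease. Mov10l1 was at 37.3 and 30.3 FPKM with Cus-1 and at 15.9 and 30.5 FPKM with busulfan alone. Cus-1 2 and busulfan 2 were nearly equal, and the log2 fold change of 0.59 (SE 0.33) was 0.14 without busulfan 1 and 1.04 without busulfan 2.

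Pld6 encodes the mitochondrial endonuclease (MitoPLD) that cuts precursors into piRNA intermediates. It was at 47.5 and 43.3 FPKM with Cus-1 and at 18.02 and 31.18 FPKM with busulfan alone (log2 fold change 0.91, SE 0.28, 0.53 without busulfan 1). Pnldc1, the exonuclease that trims the 3′ end, was at 8.04 and 6.75 FPKM with Cus-1 and at 4.84 and 6.45 FPKM with busulfan alone (0.34, SE 0.23). Its groups were apart by only 0.06 on the log2 scale, and the value was 0.17 without busulfan 1 and 0.52 without busulfan 2. The cutting and the trimming enzyme thus stood at different levels, Pld6 above Pnldc1 in every library.

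Tdrkh encodes the tudor protein that holds PIWI proteins at the mitochondrion for trimming. It was at 38.7 and 30.3 FPKM with Cus-1 and at 19.6 and 22.6 FPKM with busulfan alone (0.68, SE 0.19). Its value is uncertain, because 36.7% of its exonic bases overlap Oaz3 on the opposite strand and the strand setting of the counting is not given. Oaz3, the antizyme of spermatids, was at 316 and 111 FPKM with Cus-1 and at 70.7 and 89.9 FPKM with busulfan alone.

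Henmt1, the methyltransferase that protects the finished 3′ end, had the largest log2 fold change of the 31 genes. It was at 33.7 and 28.5 FPKM with Cus-1 and at 11.9 and 17.2 FPKM with busulfan alone (1.06, SE 0.23, limma unadjusted p = 0.006, adjusted p = 0.152). The lowest Cus-1 value exceeded the highest busulfan value by 0.69 on the log2 scale. Gm9857 overlaps 14.7% of its exonic bases on the opposite strand, and was at 2.72 and 1.99 FPKM with Cus-1 and at 0.54 and 0.25 FPKM with busulfan alone.

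Gtsf1, a zinc finger partner that speeds target cutting by PIWI proteins, was at 239 and 210 FPKM with Cus-1 and at 90.4 and 146 FPKM with busulfan alone (0.96, SE 0.26, 0.62 without busulfan 1). It was the most abundant gene of this role. Gpat2, a mitochondrial acyltransferase-like protein that binds MILI, was at 28.63 and 20.97 FPKM with Cus-1 and at 8.74 and 15.4 FPKM with busulfan alone (1.02, SE 0.31, 0.64 without busulfan 1). Asz1, a mitochondrial scaffold of the germ granule, was at 22.8 and 23.2 FPKM with Cus-1 and at 9.02 and 18.3 FPKM with busulfan alone. Its log2 fold change of 0.79 (SE 0.34) was 0.32 without busulfan 1 and 1.26 without busulfan 2. For these 3 genes both Cus-1 libraries stood above both busulfan libraries, and busulfan 1 was lowest.

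Tdrd12 and Exd1 encode partners in a complex that acts in piRNA production. Tdrd12 was at 41.4 and 38.6 FPKM with Cus-1 and at 16.3 and 34.4 FPKM with busulfan alone (0.73, SE 0.36, 0.21 without busulfan 1 and 1.24 without busulfan 2). Exd1 was at 4.38 and 5.78 FPKM with Cus-1 and at 3.67 and 3.33 FPKM with busulfan alone (0.43, SE 0.23, 0.26 without Cus-1 2). Cus-1 2 was the higher Cus-1 library for Exd1, unlike for Tdrd12. Fkbp6, a cochaperone of HSP90 in PIWI loading, was at 53.4 and 49.6 FPKM with Cus-1 and at 40.1 and 50.5 FPKM with busulfan alone, so the groups overlapped (0.19, SE 0.17, 0.03 without busulfan 1 and 0.35 without busulfan 2).

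All 10 germ granule and tudor genes had both Cus-1 libraries above both busulfan libraries (36.6% of all tested genes), with a median log2 fold change of 0.84. Mael, which acts in transposon silencing and in the export of piRNA precursors, was the most abundant of the 31 genes. It was at 632 and 552 FPKM with Cus-1 and at 267 and 376 FPKM with busulfan alone (0.90, SE 0.23). Ddx4, the germ cell RNA helicase MVH, was at 181 and 150 FPKM with Cus-1 and at 67.5 and 111 FPKM with busulfan alone (0.92, SE 0.27, 0.57 without busulfan 1). Busulfan 1 was the lowest library for both.

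Tdrd6, a scaffold of the chromatoid body, was at 189 and 142 FPKM with Cus-1 and at 95.2 and 104 FPKM with busulfan alone (0.72, SE 0.19). Here the busulfan libraries were close and the Cus-1 libraries were not. Tdrd7, which shapes the chromatoid body, was at 77.2 and 73.9 FPKM with Cus-1 and at 48.0 and 54.1 FPKM with busulfan alone (0.56, SE 0.15). Both groups of Tdrd7 were narrow, with 0.06 between the Cus-1 libraries and 0.17 between the busulfan libraries on the log2 scale.

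Tdrd1, the tudor partner of MILI, was at 53.8 and 44.8 FPKM with Cus-1 and at 20.7 and 34.9 FPKM with busulfan alone (0.84, SE 0.28, 0.48 without busulfan 1). Tdrd5, which binds pachytene piRNA precursors, was at 45.5 and 41.5 FPKM with Cus-1 and at 18.3 and 29.0 FPKM with busulfan alone (0.88, SE 0.25, 0.57 without busulfan 1). Ddx25, the gonadotropin-regulated helicase of spermatids, was at 59.3 and 49.9 FPKM with Cus-1 and at 24.8 and 36.2 FPKM with busulfan alone (0.84, SE 0.23). In these 3 genes the order of the libraries was the same, from Cus-1 1 down to busulfan 1.

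Rnf17, a RING and tudor protein that restrains the ping-pong cutting cycle, was at 64.4 and 49.4 FPKM with Cus-1 and at 19.5 and 46.6 FPKM with busulfan alone. Its groups were apart by 0.08 on the log2 scale, while the busulfan libraries differed by 1.21. The log2 fold change of 0.88 (SE 0.43) was 0.27 without busulfan 1 and 1.49 without busulfan 2. Tdrd9, a helicase with a tudor domain that works with MIWI2 in fetal germ cells, was at 35.1 and 30.3 FPKM with Cus-1 and at 15.3 and 23.8 FPKM with busulfan alone (0.74, SE 0.25, 0.44 without busulfan 1). Tdrd3, a tudor protein found in many tissues, was at 22.48 and 20.96 FPKM with Cus-1 and at 16.2 and 19.4 FPKM with busulfan alone (0.28, SE 0.17, 0.16 without busulfan 1). It had the smallest log2 fold change of the 10.

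The promoters of Mael and Tdrd9 are shown with the same marks, as the most abundant granule gene and the granule gene of the fetal pathway.
Mael, chr1:166238695-166238994, minus strand: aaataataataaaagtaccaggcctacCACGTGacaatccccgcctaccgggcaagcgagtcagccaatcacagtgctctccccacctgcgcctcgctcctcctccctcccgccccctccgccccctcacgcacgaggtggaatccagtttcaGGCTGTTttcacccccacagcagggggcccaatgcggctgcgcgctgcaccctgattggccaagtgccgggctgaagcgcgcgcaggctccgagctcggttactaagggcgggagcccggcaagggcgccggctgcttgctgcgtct
Tdrd9, chr12:111971309-111971608, plus strand: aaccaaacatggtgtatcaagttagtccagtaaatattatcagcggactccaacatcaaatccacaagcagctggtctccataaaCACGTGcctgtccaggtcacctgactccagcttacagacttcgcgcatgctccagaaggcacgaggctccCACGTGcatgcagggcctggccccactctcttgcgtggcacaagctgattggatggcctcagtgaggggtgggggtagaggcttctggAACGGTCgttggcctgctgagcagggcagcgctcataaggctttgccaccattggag
Mael held 1 MYB core match and 1 E-box, and Tdrd9 held 1 MYB core match close to its start and 2 E-boxes.

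**Figure D2:**
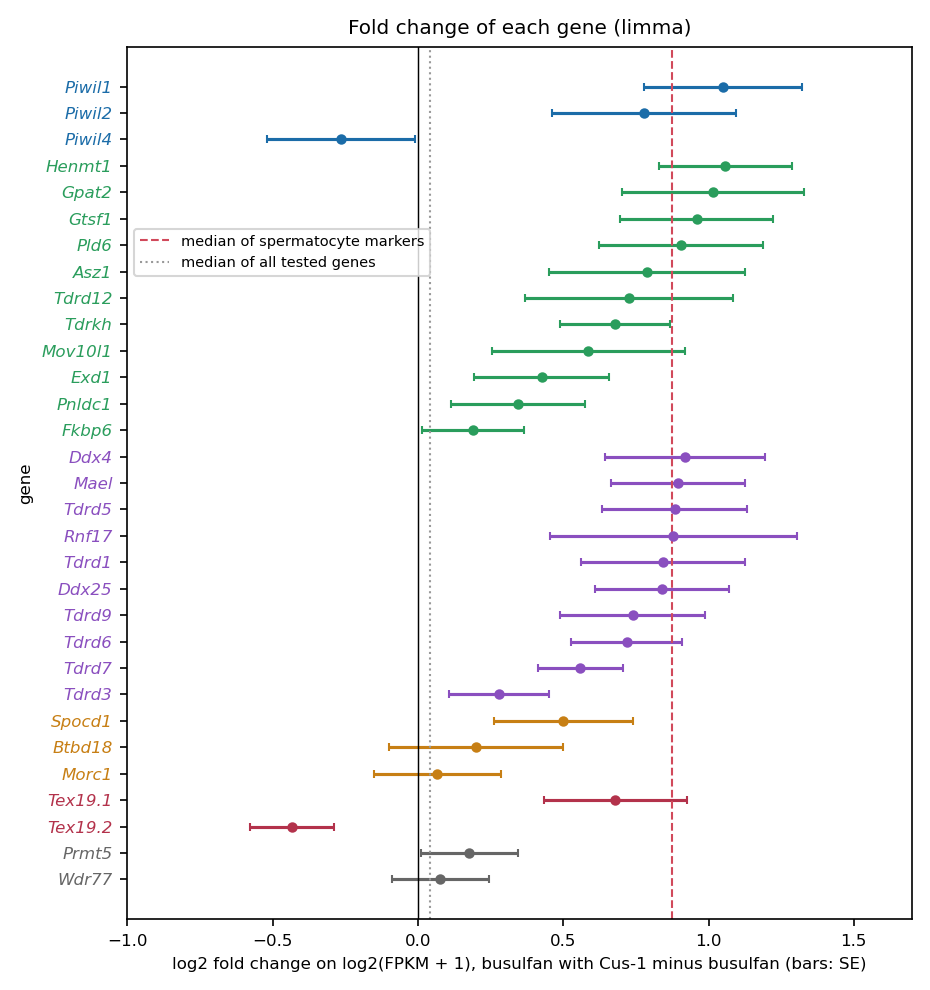
Log2 fold change (x axis, busulfan with Cus-1 minus busulfan on log2(FPKM + 1), bars give the SE) of the 31 genes (y axis, by role). The dashed line is the median of the spermatocyte markers at 0.88 and the dotted line the median of all tested genes at 0.04; Piwil4 and Tex19.2 lie below 0.

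The 3 nuclear and transcription genes were low in every library, and the groups were apart for Spocd1 and overlapped for Morc1 and Btbd18. Spocd1, the factor that links MIWI2 to DNA methylation, was at 1.72 and 1.55 FPKM with Cus-1 and at 0.97 and 0.76 FPKM with busulfan alone, by estimate 74 and 59 fragments with Cus-1 and 38 and 32 with busulfan alone. The log2 fold change was 0.50 (SE 0.24, adjusted p = 0.222), and 0.85 (SE 0.44) with a pseudocount of 0.1 in place of 1. Spocd1 passed the filter of 1 FPKM through the Cus-1 libraries only, so the filter favoured a place on the higher side.

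Morc1, a nuclear ATPase needed for transposon repression in the male germ line, was at 3.38 and 3.52 FPKM with Cus-1 and at 2.99 and 3.52 FPKM with busulfan alone (0.07, SE 0.22, adjusted p = 0.843). Its values overlapped, and its log2 fold change was -0.02 without busulfan 1, 0.16 without busulfan 2, 0.04 without Cus-1 2 and -0.07 under quantile normalization. Btbd18, which promotes transcription of pachytene piRNA clusters, was at 4.88 and 3.06 FPKM with Cus-1 and at 2.69 and 3.90 FPKM with busulfan alone (0.20, SE 0.30, adjusted p = 0.657). It overlapped as well, with -0.07 without Cus-1 1, 0.47 without Cus-1 2, -0.0041 without busulfan 1 and 0.41 without busulfan 2.

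The Tex19 paralogs, mammal-specific genes of which Tex19.1 limits retrotransposons in the germ line, differed in direction. They lie on chromosome 11, Tex19.1 at 121146143 to 121148319 on the plus strand and Tex19.2 at 121116215 to 121118677 on the minus strand. Tex19.1 was at 10.6 and 10.8 FPKM with Cus-1 and at 5.09 and 7.78 FPKM with busulfan alone (0.68, SE 0.25, 0.42 without busulfan 1). Tex19.2 was at 27.5 and 27.7 FPKM with Cus-1 and at 39.1 and 36.2 FPKM with busulfan alone (-0.43, SE 0.15, limma unadjusted p = 0.031, adjusted p = 0.161). The groups were apart for both genes. Tex19.2 ranged from -0.49 without busulfan 2 to -0.38 without busulfan 1, and turned to 0.20 when libraries were centred on Sertoli markers.

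Tex19.2 thus exceeded Tex19.1 by 2.60 and 2.56 times with Cus-1 and by 7.69 and 4.65 times with busulfan alone. This ratio overlapped in no pair of libraries across the groups and does not depend on the scaling between libraries. On the log2 scale the difference was -1.11, with no test. Of the stretches of 50 bases in the longest transcript, 2.95% of those of Tex19.1 also occur in Tex19.2 and 2.50% the other way, so few fragments could be shared. Both promoters are shown because the paralogs differed.
Tex19.1, chr11:121145893-121146192, plus strand: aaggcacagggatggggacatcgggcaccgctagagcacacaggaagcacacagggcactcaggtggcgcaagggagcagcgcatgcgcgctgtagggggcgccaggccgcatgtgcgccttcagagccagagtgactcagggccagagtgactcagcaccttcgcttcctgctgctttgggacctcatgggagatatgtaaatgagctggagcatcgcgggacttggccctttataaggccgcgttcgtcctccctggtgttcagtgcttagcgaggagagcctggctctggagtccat
Tex19.2, chr11:121118628-121118927, minus strand: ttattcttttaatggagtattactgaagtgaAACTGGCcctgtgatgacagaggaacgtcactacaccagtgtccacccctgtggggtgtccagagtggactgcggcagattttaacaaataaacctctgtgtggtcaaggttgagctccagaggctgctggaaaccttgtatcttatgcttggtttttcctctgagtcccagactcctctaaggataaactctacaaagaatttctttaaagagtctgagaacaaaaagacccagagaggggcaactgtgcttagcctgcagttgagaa
The Tex19.1 promoter held 16 CpG and no marked motif, and the Tex19.2 promoter held 2 CpG and 1 MYB core match far from its start.

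Prmt5 and its partner Wdr77 methylate arginines in the tails of PIWI proteins, which tudor domains then bind, and both also act in many other tissues. Prmt5 was at 20.8 and 22.1 FPKM with Cus-1 and at 17.4 and 20.3 FPKM with busulfan alone (0.18, SE 0.17, adjusted p = 0.478). Wdr77 was at 19.3 and 18.3 FPKM with Cus-1 and at 16.45 and 19.13 FPKM with busulfan alone (0.08, SE 0.17, adjusted p = 0.763). The groups were apart by 0.03 on the log2 scale for Prmt5 and overlapped for Wdr77. Leaving out busulfan 1 gave Wdr77 a value of -0.03, leaving out busulfan 2 gave 0.18, and leaving out Cus-1 1 gave 0.04. Prmt5 was at 0.07 without busulfan 1 and 0.28 without busulfan 2. Wdr77 is uncertain because 35.7% of its exonic bases overlap other genes, among them the gene of an ATP synthase subunit on the opposite strand.

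Fetal and spermatogonial members were set against pachytene and spermatid members. Piwil4, Tdrd9 and Spocd1 had a median log2 fold change of 0.50, and Piwil1, Tdrd6 and Rnf17 one of 0.88, a difference of -0.38. Each of these medians is the value of a single gene, Spocd1 for the fetal trio and Rnf17 for the pachytene trio. Rnf17 had an SE of 0.43 and was at 0.27 without busulfan 1. Spocd1 passed the filter of 1 FPKM only through the Cus-1 libraries, and Piwil4 only through the busulfan libraries. The mean log2(FPKM + 1) of the fetal trio minus that of the pachytene trio was -4.54 and -4.20 with Cus-1 and -3.57 and -4.06 with busulfan alone. All Cus-1 values lay below all busulfan values, but Cus-1 2 and busulfan 2 were only a short way apart. The scale shrinks changes of genes near 1 FPKM. An equal fold rise in both trios would thus also make this difference of means more negative. The difference of medians was -0.98 without busulfan 2, -0.24 without Cus-1 1, -0.22 without busulfan 1, and -0.14 with a pseudocount of 0.1 in place of 1. The fetal trio was not uniform, Tdrd9 at 0.74 standing close to the pachytene genes and Piwil4 at -0.27 far from them. Spocd1 and Piwil4 went opposite ways at about 1 FPKM, where the scale understates differences.

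**Figure D3:**
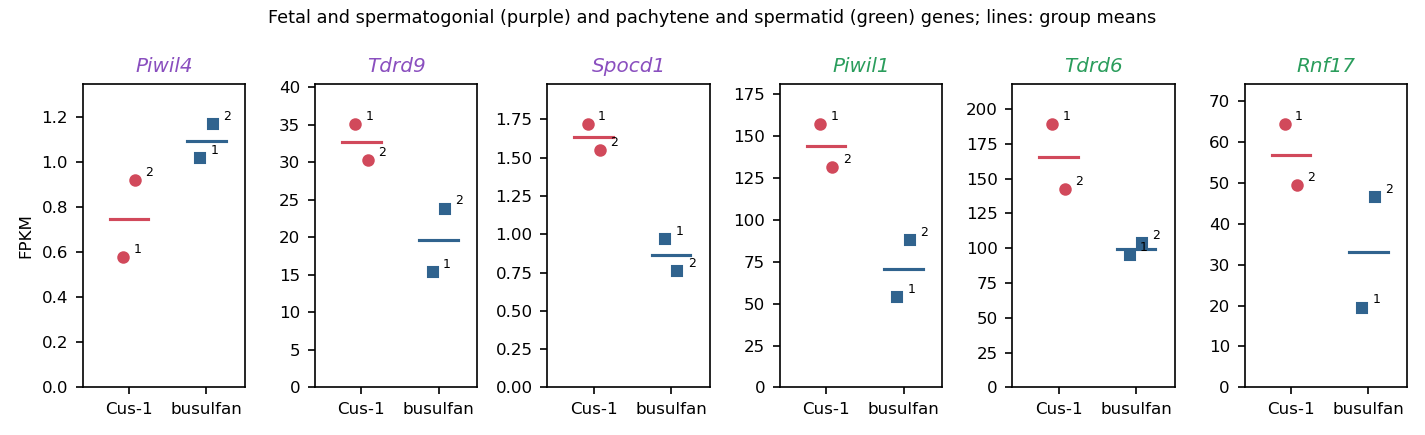
FPKM of the fetal and spermatogonial genes Piwil4, Tdrd9 and Spocd1 and of the pachytene and spermatid genes Piwil1, Tdrd6 and Rnf17, each on its own axis from 0, with circles for busulfan with Cus-1, squares for busulfan, library numbers beside the points and lines at the group means. Cus-1 points lie above busulfan points in 5 of the 6 panels (36.6% of all tested genes) and below them for Piwil4 (31.7%). Piwil4 and Spocd1 each passed the filter only through the group where they were higher.

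Piwil1 exceeded Piwil4 by 271 and 143 times with Cus-1 and by 53.0 and 75.2 times with busulfan alone. On the log2 scale, Piwil4 minus Piwil1 was lower with Cus-1 by 1.32 (-6.38 on average with Cus-1 and -5.06 with busulfan alone). Both genes are part of the trios above, and the filter favoured a low Piwil4 with Cus-1, so this pair adds no separate support.

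Relative to the spermatocyte markers, the median difference of the 31 genes between the groups was nearer 0 than that of all tested genes. When libraries were centred on the median of these markers, 11 of the 31 genes lay above 0 and 20 below, with a median of -0.11, and 19 were within 0.25 of 0. The median of all tested genes was -0.79 on that scale, and the shares of all tested genes matching these counts were not computed. The 4 highest were Henmt1 at 0.23, Piwil1 at 0.22, Gpat2 at 0.19 and Gtsf1 at 0.13. The 4 lowest were Tex19.2 at -1.26, Piwil4 at -1.09, Morc1 at -0.76 and Wdr77 at -0.75. Centring moves every fold change by the same amount, so these medians, counts and ranks restate the fold changes given above. The SE was 0.59 to 0.67 there, against 0.15 to 0.43 without the centring. With the centring, limma in effect set the SE from the trend over all tested genes. It thus does not measure the spread of a single gene. Piwil2 had an SE of 0.61, while its centred level had a range of 0.10 over the libraries. At an unadjusted limma p under 0.05, 0 were higher and only Tex19.2 was lower, where 40 and 4157 of all 19837 tested genes were.

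Library by library the picture was mixed. The range of a gene's distance from the spermatocyte median was taken over the 4 libraries. It was at most 0.25 for 4 of the 31 genes, at most 0.5 for 16 and over 0.5 for 15, with a median of 0.48. Shares of all tested genes with such ranges were not computed. The 4 narrowest were Piwil2, Tdrd1, Ddx4 and Pld6. Piwil2 stood below the spermatocyte median by -0.57 and -0.51 log2 with Cus-1 and by -0.46 and -0.52 with busulfan alone, a range of 0.10 over the 4 libraries. Tdrd1 had a range of 0.18, Ddx4 of 0.22 and Pld6 of 0.25, although the level of each was higher with Cus-1. The widest ranges were 1.93 for Tex19.2, 1.79 for Piwil4, 1.30 for Morc1 and 1.24 for Exd1. Tdrd6 at 0.78, Tdrkh at 0.71 and Prmt5 at 1.20 were wide as well.

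**Figure D4:**
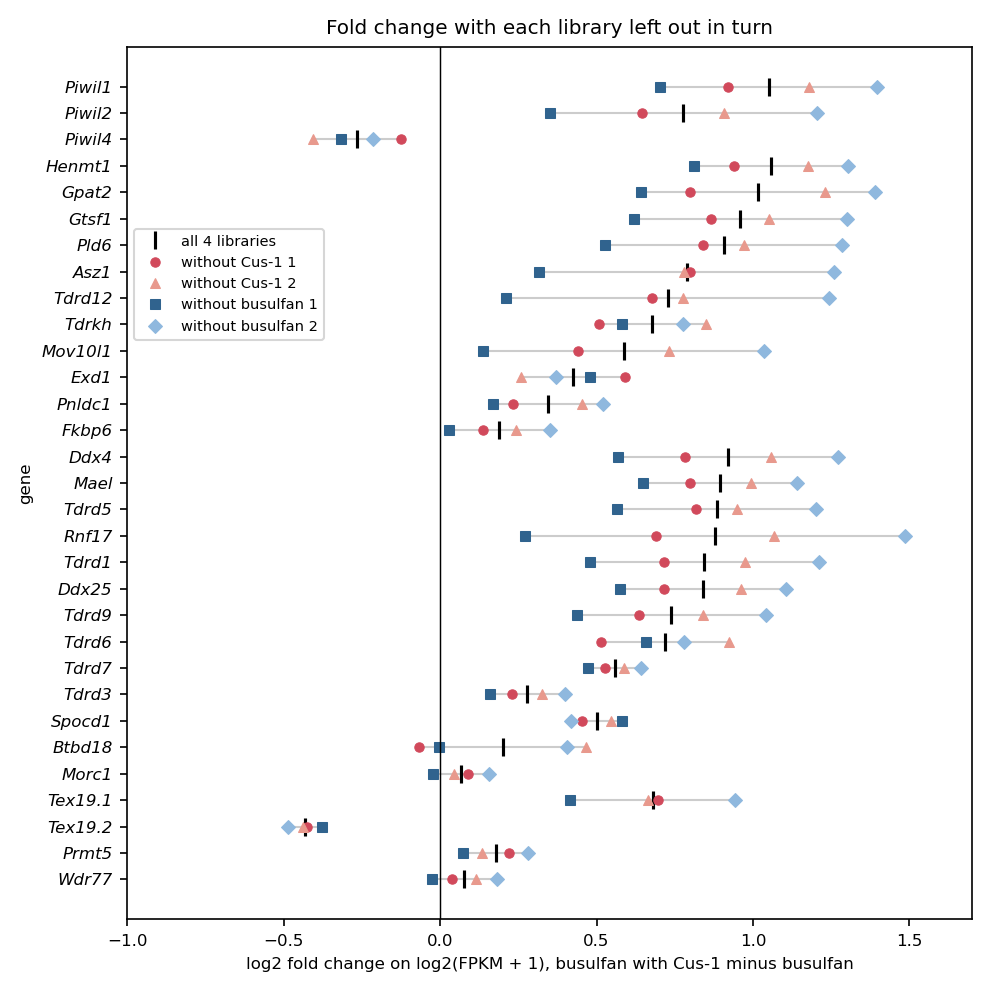
Log2 fold change (x axis) of the 31 genes (y axis) with all 4 libraries (black bar) and with each library left out in turn. Without busulfan 1 the median of the 31 genes was 0.44, and without busulfan 2 it was 1.04; Btbd18, Morc1 and Wdr77 cross 0.

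Other genes of the pathway, from a separate list of 20, were also mostly higher. Of these 20 genes 18 had a row and 16 were tested, with a median log2 fold change of 0.60, of which an unadjusted limma p under 0.05 was reached by 7 on the higher and 1 on the lower side (18.0% and 9.96% of all tested genes) and 0 were called after adjustment. Gtsf1l, a paralog of Gtsf1, was at 93.1 and 43.2 FPKM with Cus-1 and at 15.4 and 26.7 FPKM with busulfan alone (1.60, SE 0.44). Kif17, a testis kinesin linked to the chromatoid body, was at 31.7 and 13.1 FPKM with Cus-1 and at 6.32 and 8.01 FPKM with busulfan alone (1.40, SE 0.43). Cus-1 1 was far above Cus-1 2 in both.

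Gtsf2, another paralog, stood at 1.07 (SE 0.29). Tcfl5, a transcription factor of pachytene piRNA genes, stood at 0.91 (SE 0.19). Mybl1, named here for its motif, was at 21.9 and 22.5 FPKM with Cus-1 and at 15.7 and 17.4 FPKM with busulfan alone (0.40, SE 0.16, adjusted p = 0.181). The groups of all 3 were apart. On the lower side were Snd1, a widely expressed tudor nuclease, at -0.66 (SE 0.22), and Spin1, a chromatin reader bound by SPOCD1, at -0.56 (SE 0.22). Dnmt3a and Dnmt3c, methyltransferases that act on transposons in fetal germ cells, were both at -0.16 (SE 0.19 and 0.29). Nanos2, a marker of spermatogonial stem cells, was listed at 0 in Cus-1 1 and was at most 0.09 FPKM in the other libraries, and Nanos3 stayed below 1 FPKM in all 4.

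Genes that restrict transposons outside the piRNA pathway had a median near that of all tested genes. The 17 genes had a median of -0.09, and an unadjusted limma p under 0.05 was reached by 4 on the higher side (18.0% of all tested genes) and 5 on the lower side (9.96%), with 0 called after adjustment. Uhrf1, which keeps DNA methylation in dividing cells, was at 0.95 (SE 0.22), the RNase H2 subunit gene Rnaseh2a at 0.74 (SE 0.17), the HUSH complex gene Mphosph8 at 0.64 (SE 0.23) and the remodeller gene Hells at 0.56 (SE 0.23). Apobec3, a cytidine deaminase of innate defence, was at 16.4 and 17.4 FPKM with Cus-1 and at 34.0 and 27.8 FPKM with busulfan alone (-0.83, SE 0.17). Zc3hav1, an antiviral RNA-binding protein, was at -0.82 (SE 0.23), the remodeller gene Atrx at -0.61 (SE 0.23) and Mov10, the paralog of Mov10l1, at -0.57 (SE 0.21). Mov10l1 and Mov10 thus stood on opposite sides, at 0.59 and -0.57.

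**Figure D5:**
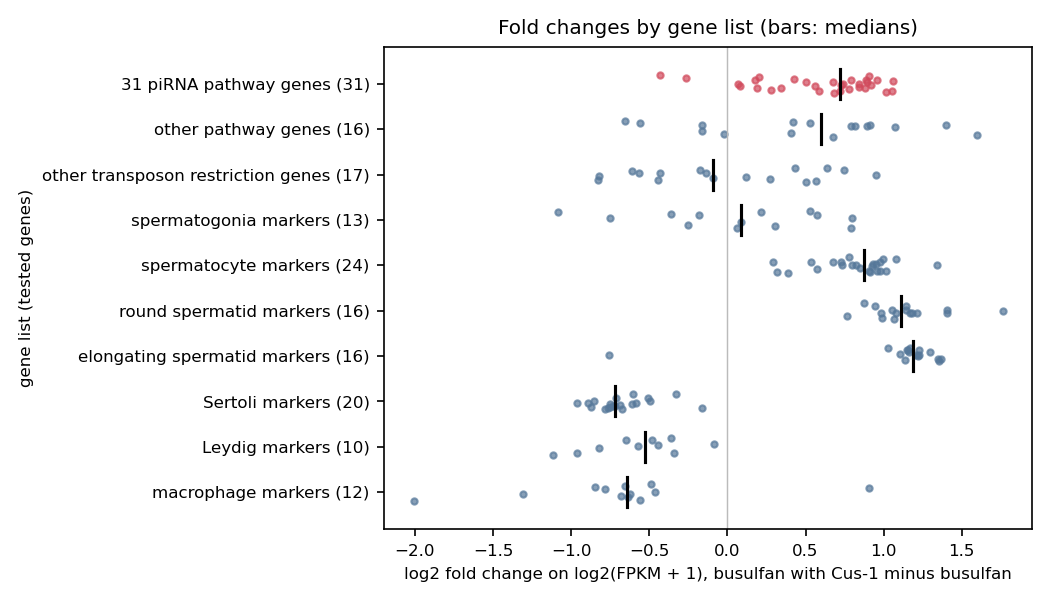
Log2 fold change (x axis, busulfan with Cus-1 minus busulfan on log2(FPKM + 1)) of each tested gene (points) in the 31 piRNA pathway genes and in 9 other lists, with black bars at the medians and numbers of tested genes in brackets. The 31 genes have a median of 0.72, between the spermatogonia markers (0.08) and the spermatocyte markers (0.88).

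Spermatogonia markers had a median close to that of all tested genes. The 13 tested genes of 14, led by Dmrtb1 and Uchl1, had a median log2 fold change of 0.08, with 5 above and 4 below in both Cus-1 libraries (36.6% and 31.7% of all tested genes), and their summed level was 499 to 516 FPKM with Cus-1 and 354 to 464 FPKM with busulfan alone. Of the 31 genes, those nearest this median were Wdr77 at 0.08 and Morc1 at 0.07.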

How the data were processed

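Gene levels are FPKM values, as the authors deposited them for the 4 libraries in 1 table. Per the submitters' processing notes the build was mm10; aligner, counter, annotation, strand setting and filters: not given in the sources used here. Of 45536 rows with values, 910 had no gene name (0.641% to 0.688% of summed FPKM) and were left out. For 115 symbols on more than 1 row, the row with the highest mean was used. A gene was tested if 2 or more libraries reached 1 FPKM, which left 19837 genes and all 31 members, of which 29 passed in both groups. Groups were compared by limma (version 3.58.1, R 4.3.3) on log2(FPKM + 1), its prior variance following mean level, and p-values were adjusted by Benjamini-Hochberg over every tested gene. The code was tested on simulated data. No p is given for a value that combines several members, differences between 2 members included.

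Samples were grouped by source label and numbered by accession order within a group, which pairs nothing. Positions and overlaps came from GENCODE M21 (mm10), promoters from RefSeq GRCm38.p6. Depth was estimated in genes with 1 annotated transcript of 300 to 2000 bases. It came from the commonest FPKM multiplied by length within a window of low values set in advance, which bounds the estimate. Fragments per gene were then estimated from the longest transcript. Both are approximate. The named genes were all members, the 4 highest and 4 lowest of the other pathway and the restriction lists, and the 2 most abundant of each marker list; Mybl1, Nanos2, Nanos3, Oaz3 and Gm9857 were added after their values were seen. The members and lists were chosen with earlier results of these data known.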

Additional observations from a re-analysis of the deposited data

How the results depend on the processing

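The 31 genes gave 398 fold changes under 13 other settings, of which 20 passed the threshold under 1 setting and 25 changed sign. With 0 calls in the main fit, no call could be lost. Pseudocounts of 0.1 and 0.5 and centring on the median of tested genes changed no sign. No low-value filter, the 5 FPKM filter and limma without trend leave each fold change as in the main fit. Those copies are among the 398 and could not change sign. Centred on Sertoli markers, which moved the median of all tested genes to 0.68, 20 of the 31 genes passed the adjusted threshold (27.5% of all tested genes; 0 members in the other settings), 26 were higher (42.6%) and 0 lower (0.353%) at unadjusted p under 0.05, 0 lay below in both libraries (2.06%), the median was 1.35, that of other pathway genes 1.24 and that of restriction genes 0.55, and Piwil4 was at 0.37 and Tex19.2 at 0.20. Centred on spermatocyte markers, 0 were higher at unadjusted p under 0.05 (0.202% of all tested genes), 2 lay above (2.28%) and 10 below (60.6%) in both libraries, and the medians were -0.11 for the 31 genes, -0.23 for other pathway genes and -0.92 for restriction genes. Negative there were Piwil2 (-0.050), Mov10l1 (-0.24), Tdrd3 (-0.55), Tdrd6 (-0.11), Tdrd7 (-0.27), Tdrd9 (-0.089), Tdrd12 (-0.10), Tdrkh (-0.15), Asz1 (-0.039), Pnldc1 (-0.48), Tex19.1 (-0.15), Fkbp6 (-0.64), Btbd18 (-0.63), Spocd1 (-0.33), Morc1 (-0.76), Exd1 (-0.40), Prmt5 (-0.65) and Wdr77 (-0.75). Quantile normalization put Morc1 at -0.065, Btbd18 at 0.07, Fkbp6 at 0.09 and Wdr77 at 0.04, and centring on the median of tested genes put Morc1 at 0.02 and Wdr77 at 0.03. A pseudocount of 0.1 put Piwil4 at -0.52 and Spocd1 at 0.85. A 5 FPKM filter left 26 of the 31 genes, without Piwil4, Spocd1, Btbd18, Morc1 and Exd1. With Piwil4 gone, 1 gene lay below in both libraries. Without the trend, 0 were lower at unadjusted limma p under 0.05.

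With each library left out in turn, 24 to 29 genes lay above in all remaining libraries (42.2% to 46.6% of all tested genes). Below lay 2 (37.7% to 41.2%), and the median of the 31 genes ran from 0.44 to 1.04. The ends of the ranges need not come from the same setting. The median of other pathway genes ran from 0.39 to 0.80, that of restriction genes from -0.17 to 0.028 (0.00048 without Cus-1 1), and the difference between fetal and pachytene medians from -0.98 to -0.22. Without busulfan 1 the fold change of 20 genes moved by over 1.5 times, without busulfan 2 that of 11, without Cus-1 1 that of 3 and without Cus-1 2 that of 4. Btbd18 ran from -0.067 (without Cus-1 1; -0.0041 without busulfan 1) to 0.47, Morc1 from -0.023 to 0.16 and Wdr77 from -0.025 to 0.18, the last 2 lowest without busulfan 1. The causes were not tested. No paired analysis was possible because the labels share no replicate number between the groups. With 2 libraries a group and an estimated 27 to 74 fragments for Piwil4 and Spocd1, differences in these genes are the least certain.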
